A study of Homo sapiens with 12 samples.

Results

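The DNA replication licensing genes are MCM2, MCM3, MCM4, MCM5, MCM6, MCM7, PCNA, CDC6, CDT1 and ORC1. They were taken by name, and all 10 were found among 20136 protein-coding genes of the annotation. Their promoters were examined for trimethylation of histone H3 at lysine 4 (H3K4me3), a mark of active promoters, in BON1 cells, an established human pancreatic neuroendocrine tumor line. The mark was mapped by CUT&RUN, in which an antibody bound to chromatin in permeabilized cells directs a nuclease that releases the fragments to be sequenced. Control cells, named BON1/TGL/pQ, were set against BON1/TGL/HA-Bcl-xL, which overexpress an epitope-tagged form (HA-Bcl-xL) of the anti-apoptotic protein Bcl-xL. Both lines carried TGL, both were grown in medium with puromycin, and 500000 cells went into each reaction. A rabbit anti-mouse IgG in place of the H3K4me3 antibody gave the background. The labels list 12 samples, 3 replicates for each line and antibody, and 11 peak lists were used. For H3K4me3 these were replicates 1, 2 and 3 of the control line with replicates 2 and 3 of the HA-Bcl-xL line, and for IgG all replicates. Replicate 1 of HA-Bcl-xL with the H3K4me3 antibody was not analysed here. The labels do not say whether either line is a clone or whether replicates were separate cultures, so p-values measure the spread between these samples, which may be technical.

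Licensing is the step of the cell cycle that makes an origin of replication competent to fire. The origin recognition complex, of which ORC1 is the largest subunit, binds origins, and with CDC6 and CDT1 it loads the ring-shaped helicase formed by MCM2 to MCM7 onto DNA in G1 phase. PCNA acts later, as the sliding clamp that holds the replicative polymerases on DNA. Most of these genes are known targets of E2F transcription factors, which activate them as cells enter the cycle, and several are used in pathology as markers of proliferating tumor cells.

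A promoter was taken to run 1 kb to each side of the 5′ end of a gene, its outermost annotated start, and a promoter counted as marked in a library when at least 1 bp of a peak fell in it. Distances are in bp from that 5′ end, negative upstream. The start of the MANE Select transcript, a single reference transcript chosen per gene by the annotation projects, coincides with the 5′ end for MCM6, CDC6, CDT1 and ORC1. It lies 1 bp downstream for MCM2, 6 bp for MCM5, 139 bp for MCM3, 543 bp for MCM7, 756 bp for MCM4 and 6668 bp for PCNA.

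The following E2F sequences are shown because 8 of the 10 genes carry such a word between 250 bases before and 50 after the MANE start, and because some of the H3K4me3 peaks lay over it. The word of MCM4, 230 bases upstream, is not printed. An E2F word was any of TTTCCCGC, TTTCGCGC, TTTGCCGC or TTTGGCGC on either strand, and the words are in capitals. Each line gives 30 bases of GRCh37 (hg19) on the strand of the gene, from 5′ to 3′. Where words on opposite strands overlap, the capitals run over both.
MCM2, chr3:127317247-127317276, plus strand: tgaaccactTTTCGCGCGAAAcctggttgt
MCM3, chr6:52149696-52149725, minus strand: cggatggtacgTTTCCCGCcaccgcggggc
MCM3, chr6:52149526-52149555, minus strand: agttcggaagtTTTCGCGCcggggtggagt
MCM5, chr22:35795925-35795954, plus strand: agccagaagTTTCGCGCCAAAttgttccgc
MCM5, chr22:35796118-35796147, plus strand: cgcctcttgttTTTCCCGCgaaactcggcg
MCM6, chr2:136634145-136634174, minus strand: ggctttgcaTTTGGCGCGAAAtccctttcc
MCM6, chr2:136634083-136634112, minus strand: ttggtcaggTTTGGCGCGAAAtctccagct
MCM7, chr7:99699189-99699218, minus strand: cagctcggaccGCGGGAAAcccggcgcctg
MCM7, chr7:99699011-99699040, minus strand: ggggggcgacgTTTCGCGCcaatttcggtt
CDC6, chr17:38444127-38444156, plus strand: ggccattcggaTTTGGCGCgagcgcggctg
CDT1, chr16:88870151-88870180, plus strand: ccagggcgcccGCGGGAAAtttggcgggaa

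A second set of sequences is shown because it is where the peaks of separate libraries coincided. For ORC1, CDC6, CDT1 and MCM3 these bases lay under a peak in all 5 H3K4me3 libraries, and for PCNA in 4 of 5. CpG dinucleotides are in capitals. For ORC1 the printed run is the part of the 208 bp shared stretch that lies outside the annotated untranslated region of the neighbouring gene PRPF38A.
ORC1, chr1:52870101-52870273, minus strand: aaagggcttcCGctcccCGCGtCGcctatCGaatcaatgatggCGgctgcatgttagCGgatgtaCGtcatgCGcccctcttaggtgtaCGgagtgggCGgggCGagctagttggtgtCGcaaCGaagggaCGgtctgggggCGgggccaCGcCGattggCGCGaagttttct
CDC6, chr17:38444557-38444649, plus strand: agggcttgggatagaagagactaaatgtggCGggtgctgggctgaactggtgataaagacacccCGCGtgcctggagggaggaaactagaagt
CDT1, chr16:88871018-88871111, plus strand: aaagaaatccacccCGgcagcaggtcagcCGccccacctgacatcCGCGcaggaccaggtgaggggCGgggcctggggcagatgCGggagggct
MCM3, chr6:52149004-52149099, minus strand: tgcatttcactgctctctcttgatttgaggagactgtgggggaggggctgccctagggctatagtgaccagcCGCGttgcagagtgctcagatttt
PCNA, chr20:5100736-5100820, minus strand: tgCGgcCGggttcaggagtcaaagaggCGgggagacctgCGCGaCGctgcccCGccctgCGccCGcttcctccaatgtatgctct

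The stretches differed in base composition. The ORC1 run held 20 CpG in 173 bp at 62.4% GC and lay upstream of the start, and the PCNA run held 9 CpG in 85 bp at 68.2% GC, upstream of the MANE start. The CDT1 run, over coding exon 2 and intron 2, held 6 CpG in 94 bp at 70.2% GC. Those of CDC6 and MCM3, both in intron 1, held 3 CpG in 93 bp at 54.8% GC and 2 CpG in 96 bp at 54.2% GC.

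The H3K4me3 lists held 10247 to 17711 peaks. The IgG lists held 1674 to 2113 in control and 244 to 268 in HA-Bcl-xL cells. The lists give no read totals. Depth was therefore read from the lowest background in each list, which was 0.0478 to 0.0705 fragments per base in the H3K4me3 libraries and was lowest in control replicate 3. The estimated number of fragments at the summit had a median of 9 to 12 per H3K4me3 list, so a promoter with no peak was not shown to lack the mark at this depth. Fewer marked cells and less mark per cell cannot be told apart in such libraries. Fragment numbers carry counting error only, and PCR copies of 1 molecule would be counted as several. Of the neuroendocrine marker genes reported here, CHGB, NEUROD1 and SCG2 had promoters marked in all 5 H3K4me3 libraries. CHGA, SYP, SLC18A1 and TPH1 were marked in some, and ENO2 and INSM1 in none. Both ENO2 and INSM1 had a peak in at least 1 H3K4me3 library within 2.5 kb of any transcript start. With 1 kb around the MANE start, ENO2 was marked in 1 library and INSM1 in none. TPH1 was marked with HA-Bcl-xL in replicates 2 and 3 but in none of the control libraries, a pattern found at 0.844% of all genes. None of 6 fibroblast, 5 leukocyte or 4 hepatocyte marker promoters was marked in any library. Within 2.5 kb of any transcript start, 5 of the 6 fibroblast markers and all leukocyte and hepatocyte markers had no H3K4me3 peak.

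Promoters of all 10 licensing genes were marked with H3K4me3 in at least 1 library, beside 48.2% of all protein-coding genes. ORC1, CDC6, CDT1, MCM2, MCM3, MCM6 and PCNA were marked in all 5 libraries, 7 of 10 genes beside 21.3% of all genes. MCM5 was marked in 4 libraries, MCM7 in 2 and MCM4 in 1. No licensing promoter was marked throughout the HA-Bcl-xL libraries but in none of the control libraries (0 of 10, beside 0.844% of all genes) or in all control libraries and no HA-Bcl-xL library (0 of 10, beside 0.248%). None had a peak in any of the 6 IgG libraries (0 of 10, beside 0.785% of all genes).

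By library, 9, 9 and 8 of the 10 promoters were marked in the control libraries 1 to 3, and 8 in each of the HA-Bcl-xL libraries. The groups overlapped at 8, with 8.67 ± 0.577 (SD, n = 3) in control and 8 ± 0 (SD, n = 2) in HA-Bcl-xL cells. Their difference, HA-Bcl-xL minus control, was −0.67 genes, against a pooled SD of 0.471. Over all genes the shares were 33.6 ± 6.20% (SD, n = 3) in control and 37.3 ± 1.16% (SD, n = 2) in HA-Bcl-xL cells, with the control libraries spanning 28.2 to 40.4% and the HA-Bcl-xL libraries lying within that range. The difference in gene number was −1.33 with a minimum −log10 q of 5, −2 with lists of equal length, and −0.17 for 1 kb or 2.5 kb around any transcript start. Its sign turned for a window of 1 kb around the MANE start (0.17) and for a peak over the 5′ end base itself (1.67).

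**Figure D1:**
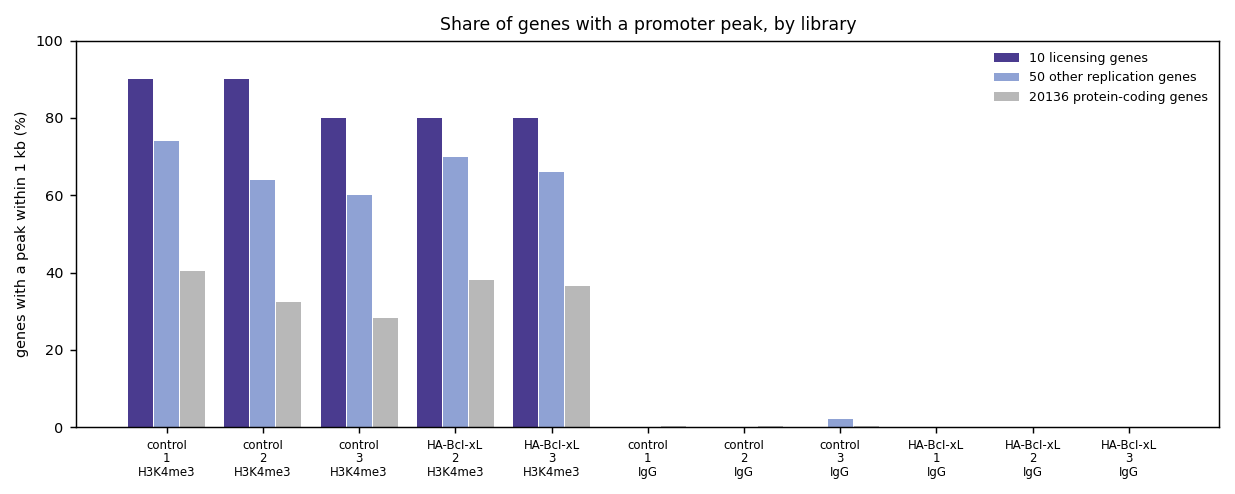
Share of genes (%) whose promoter, 1 kb to each side of the 5′ end, held a peak in each of the 11 libraries, for the 10 licensing genes, 50 other replication genes and all 20136 protein-coding genes, with 1 bar for each set and library. The licensing genes stand at 80 to 90% in the H3K4me3 libraries and at 0 in the IgG libraries, and all genes at 28.2 to 40.4% in the H3K4me3 libraries.

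The 7 genes marked in every library held with a window of 2.5 kb around the 5′ end (25.6% of all genes), 1 kb around any annotated transcript start (26.5%) and 2.5 kb around any start (28.7%). In the last of these, 1 gene, MCM2, had an IgG peak, beside 3.88% of all genes. That peak, in control IgG replicate 3, lay 8439 to 8551 bp downstream of the 5′ end in intron 6 and rested on an estimated 3 fragments. With the MANE start the count was 6, without PCNA (23.0% of all genes). With the summit required to lie in the window it was also 6, again without PCNA (20.5%). With a minimum −log10 q of 5 (15.3% of all genes), or with lists cut to equal length (17.9%), it was 4 in each case, namely ORC1, CDC6, CDT1 and MCM3.

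ORC1, on the minus strand of chromosome 1, shares a start region with PRPF38A, a splicing factor gene whose 5′ end lies 179 bp upstream on the opposite strand. Peaks covered 451, 217 and 311 bp of the ORC1 window in control replicates 1 to 3, against 322 and 318 bp with HA-Bcl-xL in replicates 2 and 3. Both HA-Bcl-xL values lay inside the control range. Every library had a peak just upstream of the ORC1 start, and all of these covered the bases from −213 to −6. They rested on an estimated 22, 20 and 11 fragments in the control libraries and 17 and 18 in the HA-Bcl-xL libraries, the lowest being control replicate 3. In control replicate 1 and HA-Bcl-xL replicate 3 their summits lay within PRPF38A. A further peak, with its summit within PRPF38A too, covered the bases from −529 to −453 in every library except control replicate 2. Peaks between the divergent starts cannot be assigned to either gene.

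CDC6, the ATPase that joins ORC at origins, had 289, 103 and 188 bp under peaks in the control libraries and 210 and 223 bp in the HA-Bcl-xL libraries. Control replicate 2 was lowest and control replicate 1 highest, and the HA-Bcl-xL values fell between them. A peak in intron 1 covered the bases from 426 to 518 in all 5 libraries, with an estimated 15, 12 and 7 fragments in control and 12 and 8 in HA-Bcl-xL cells. A separate peak over the 5′ end was called in control replicate 1 and in both HA-Bcl-xL libraries, at −118 to 27, −75 to 8 and −74 to 8. Control replicate 3 had instead a peak at 134 to 225, in exon 1, and control replicate 2 had no second peak.

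CDT1, the factor that with CDC6 brings the MCM helicase to ORC, had 1 peak in each library and none over its start. It covered 173, 147 and 127 bp in control cells, against 138 and 113 bp with HA-Bcl-xL. The groups overlapped, and HA-Bcl-xL replicate 3 was the lowest of the 5. The peaks spanned 787 to 959, 768 to 914 and 817 to 943 in control and 804 to 941 and 821 to 933 in HA-Bcl-xL cells, so they lay over coding exon 2 and intron 2. They ranked high within their own lists, ordered by −log10 p. Their percentile ranks were 89.8, 66.0 and 95.6 in control and 96.3 and 93.7 in HA-Bcl-xL cells, on an estimated 17, 10, 15, 20 and 16 fragments.

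**Figure D2:**
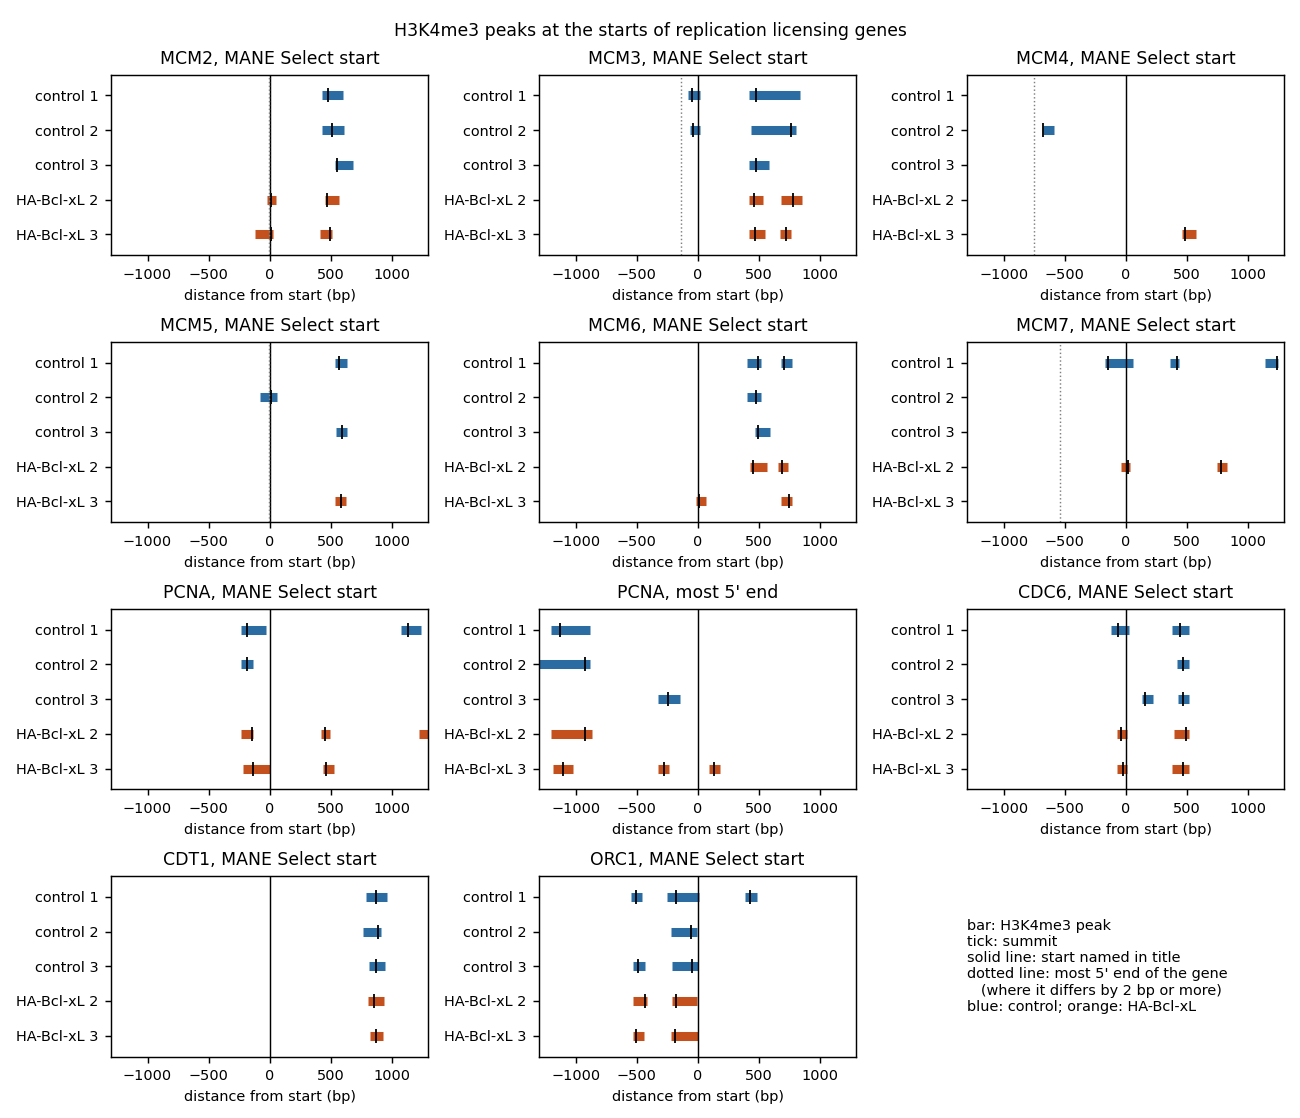
H3K4me3 peaks (bars) and their summits (ticks) in each of the 5 libraries, by distance in bp from the MANE Select start of each gene (solid line at 0), with the most 5′ end as a dotted line where it differs by 2 bp or more and an added panel on the 5′ end of PCNA; blue is control and orange is HA-Bcl-xL. Peaks of separate libraries line up for ORC1, CDC6 and CDT1, while MCM4 and MCM7 have peaks in few libraries.

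The 6 helicase subunits split into 3 marked in every library (MCM2, MCM3 and MCM6) and 3 that were not (MCM4, MCM5 and MCM7). Each encodes 1 of the 6 different subunits of the hexamer that unwinds DNA ahead of the polymerases.

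MCM3 had the widest coverage of the 6 in 4 of the 5 libraries, the exception being HA-Bcl-xL replicate 3. Peaks covered 517, 452 and 167 bp in control cells, against 289 and 225 bp with HA-Bcl-xL, the HA-Bcl-xL values lying between control replicates 2 and 3. A peak in intron 1 covered the bases from 580 to 675 in all 5 libraries, with an estimated 21, 16, 16, 19 and 18 fragments in the same order. Control replicates 1 and 2 alone also had a peak at 59 to 159 and 73 to 161, over the MANE start, with an estimated 18 and 16 fragments.

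MCM2, which faces the divergent gene TPRA1 143 bp upstream, had 173, 180 and 150 bp under peaks in control cells, against 187 and 249 bp with HA-Bcl-xL. Both HA-Bcl-xL values were above all 3 control values, as at 9.92% of the 9699 promoters marked in at least 1 library. Divided by the median of its library over promoters marked in all 5 libraries, HA-Bcl-xL replicate 2 (0.754) was below control replicates 2 (0.861) and 3 (0.882), so the groups overlapped on that scale. An intron 1 peak was called in every library, starting between 417 and 537. In HA-Bcl-xL cells a second peak lay over the start itself, with bounds of −18 and 56 for replicate 2 and of −119 and 29 for replicate 3, each on an estimated 7 fragments. No control library had a peak there. MCM2 was the only licensing gene with a peak over the 5′ end base in every HA-Bcl-xL library but in none of the control libraries (1 of 10, beside 0.452% of all genes), and it was singled out after its values were seen. The reverse was found for no licensing gene, beside 0.139% of all genes. The start peaks stood below the middle of their lists, with percentile ranks of 37.7 and 34.3, and no bases within them lay under an IgG peak.

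MCM6 had 204, 118 and 124 bp in control cells, against 223 and 174 bp with HA-Bcl-xL. The groups overlapped, since control replicate 1 exceeded HA-Bcl-xL replicate 3. In the other 4 libraries an intron 1 peak covered the bases from 470 to 515. HA-Bcl-xL replicate 3 had peaks to either side of it, at 684 to 773 and over the start at −16 to 67, and these rested on an estimated 5 and 6 fragments. Control replicate 1 had a peak at 684 to 773 too, and HA-Bcl-xL replicate 2 one at 657 to 738, each on an estimated 9 fragments.

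MCM5 had 102, 135 and 94 bp in control, none in HA-Bcl-xL replicate 2 and 92 bp in HA-Bcl-xL replicate 3. Both HA-Bcl-xL values were below the control values, as at 3.69% of the 9699 promoters, by the few bases between 92 and 94. Divided by the median of its library, HA-Bcl-xL replicate 3 (0.398) was above control replicate 1 (0.343), so the groups overlapped. Control replicates 1 and 3 and HA-Bcl-xL replicate 3 had their peak in nearly the same place in intron 2, at 542 to 643, 552 to 645 and 542 to 633. Control replicate 2 had it over the start, at −69 to 65. All 4 peaks were small, on an estimated 9, 5, 5 and 6 fragments.

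MCM7, whose window also holds the start of AP4M1, an adaptor complex subunit, 391 bp downstream on the other strand, had 305 bp in control replicate 1 and 75 bp in HA-Bcl-xL replicate 2. It had no peak in the window in the other 3 libraries. The peaks of both libraries covered the bases around the MANE start, at 373 to 600 and 506 to 580 from the 5′ end. That of control replicate 1 lay over the AP4M1 start too, with its summit at 396, and cannot be assigned to either gene. Control replicate 1 had a second peak at 903 to 979.

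MCM4 lies 7 bp from the divergent start of PRKDC, the catalytic subunit of DNA-dependent protein kinase. It had 96 bp under a peak in control replicate 2 and none in the other 4 libraries. A peak at 1216 to 1333, outside the window and 485 bp downstream of the MANE start at its summit, was called in HA-Bcl-xL replicate 3. Both peaks rested on an estimated 8 fragments.

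PCNA gave different answers at its annotated starts. The 5′ end belongs to a long transcript and faces CDS2, a phospholipid synthesis gene, 253 bp away. Peaks within 1 kb of it covered 122, 122 and 177 bp in control cells, against 136 and 182 bp with HA-Bcl-xL, with the groups overlapping. In control replicates 1 and 2 and HA-Bcl-xL replicate 2 these bases were the edge of a peak that began at −1206, −1340 and −1206 and had its summit within CDS2. Control replicate 3 had a peak at −323 to −147 with its summit outside CDS2. HA-Bcl-xL replicate 3 had a peak at 93 to 187, within PCNA, and another at −323 to −237 with its summit within CDS2. At the MANE start, 6668 bp downstream, a peak covered the bases from −216 to −132 before that start in control replicates 1 and 2 and both HA-Bcl-xL libraries. These peaks rested on an estimated 14, 15, 12 and 11 fragments, and control replicate 3 had none. Signal at the 5′ end cannot be told apart between PCNA and CDS2.

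**Figure D3:**
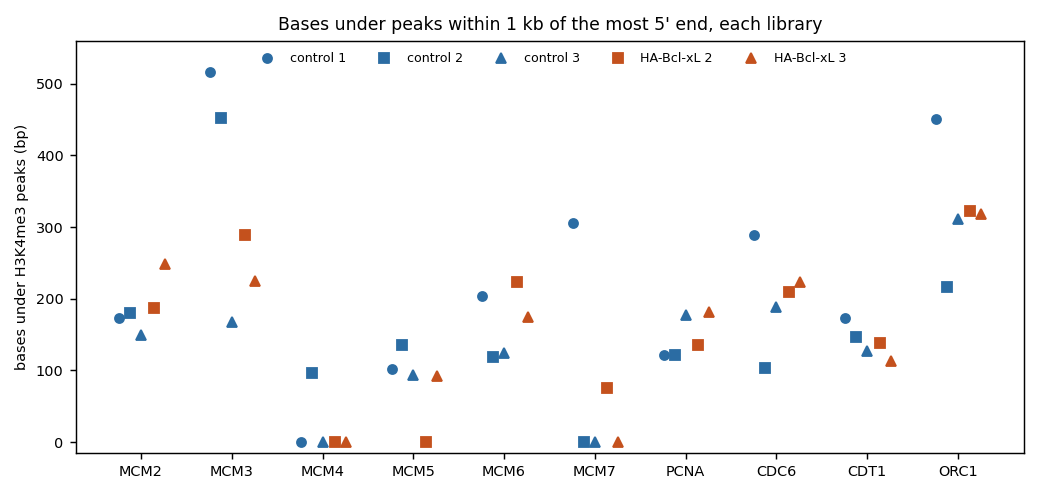
Bases under H3K4me3 peaks (bp) within 1 kb of the 5′ end of each licensing gene, 1 point per library, control in blue and HA-Bcl-xL in orange, with marker shape for the replicate number. The groups overlap for 8 of the 10 genes; both HA-Bcl-xL points lie above the control points for MCM2 and below them for MCM5 (9.92% and 3.69% of promoters), a separation lost for both when bases are divided by library medians.

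With bases divided by library medians, the groups separated instead for MCM6, higher with HA-Bcl-xL (9.54% of the 9699 promoters), and for CDT1, lower with HA-Bcl-xL (6.1%). Coverage was then compared between the lines at every promoter marked in all 5 libraries, 4289 promoters, on log2 of the bases under peaks with each library centred on its median. This filter kept 7 of the 10 licensing genes and left out MCM4, MCM5 and MCM7. No promoter passed an adjusted p of 0.05 with limma and Benjamini-Hochberg adjustment over all 4289 (0% of promoters, smallest adjusted p 0.834), and 210 (4.9%) had an unadjusted p under 0.05. None of the 7 licensing genes was called, and each had an adjusted p of 0.988 in limma. The median log2 difference, HA-Bcl-xL minus control, was 0.06 over the 7 and −0.02 over all 4289. Of the 7, 4 had a positive difference, as had 2060 of the 4289 (48.0%). Without centring, the median over all promoters shifted to 0.10 and 60.4% were positive.

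The largest negative difference among the 7 was that of MCM3, −0.54 on the log2 scale (SE 0.436), from 379 ± 186 bp (SD, n = 3) in control to 257 ± 45.3 bp (SD, n = 2) in HA-Bcl-xL cells. The largest positive one was that of MCM6, 0.33 (SE 0.394), from 149 ± 48.0 bp to 198.5 ± 34.6 bp. Both lay within the 5th to 95th percentile range of all promoters fitted, −0.80 to 0.76. MCM2 differed by 0.24 (SE 0.412), with 168 ± 15.7 bp in control and 218 ± 43.8 bp in HA-Bcl-xL cells, and CDC6 by 0.16 (SE 0.441). CDT1 differed by −0.37 (SE 0.393), ORC1 by −0.09 (SE 0.411) and PCNA by 0.06 (SE 0.457). Apart from MCM3, each of the 7 differed by less than its SE. The count of called promoters was 9 without HA-Bcl-xL replicate 3, 3 without HA-Bcl-xL replicate 2 and 1 without control replicate 2, and no licensing gene was among them. The fits giving 9 and 3 set the 3 control libraries against a lone HA-Bcl-xL library, which is assumed to vary as the controls do. The sign of the difference turned for MCM2 (−0.01) and PCNA (−0.19) without HA-Bcl-xL replicate 3, for PCNA (−0.25) without control replicate 1, for CDC6 (−0.20) without control replicate 2 and for ORC1 (0.10) without control replicate 3. ORC1 turned also without centring (0.04). PCNA was at 0.63 (SE 0.415) within 1 kb of any transcript start, and CDC6 at 0.47 (SE 0.403) with a minimum −log10 q of 5 and 0.57 (SE 0.405) with lists of equal length, neither of them called.

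**Figure D4:**
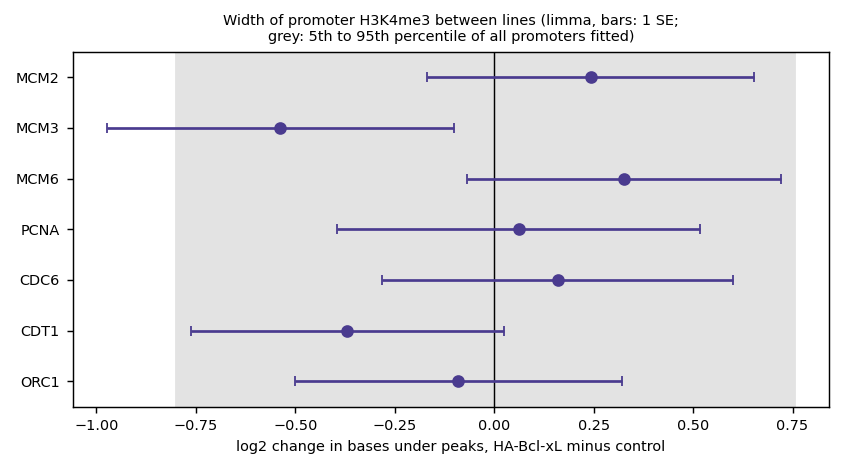
Difference in log2 bases under H3K4me3 peaks, HA-Bcl-xL minus control, for the 7 licensing genes marked in all 5 libraries (points, limma estimates; bars, 1 SE), with the 5th to 95th percentile of all 4289 promoters fitted in grey. All 7 points lie within the grey range, and the bars of MCM2, MCM6, PCNA, CDC6, CDT1 and ORC1 cross 0 while that of MCM3 does not.

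In these 5 libraries the licensing genes had 62 peaks within 1 kb, 75 to 462 bp wide with a median of 116 bp, on an estimated 5 to 22 fragments at the summit (median 11). Summits lay downstream of the 5′ end in 45 and upstream in 17. Per library, 69.2 to 80% of the licensing peaks were downstream, beside 55.6 to 57.5% of the peaks at all protein-coding genes. A peak over the 5′ end base itself was found in 2, 1 and 1 licensing genes in control and 2 and 4 in HA-Bcl-xL cells, and in no gene in all 5 libraries (beside 5.52% of all genes). In at least 1 library it was found for MCM2, MCM5, MCM6, CDC6 and ORC1, 5 of 10 beside 21.6% of all genes. Among the 7 promoters marked in all 5 libraries, 4 (57.1%) had a base shared by all 5, namely ORC1, CDC6, CDT1 and MCM3. The share was 82.1% (3522) of the 4289 promoters of all genes, and 17.5% of all genes had such a base. Coverage per promoter was 147 to 223 bp in the median over the 7 and 170 to 297 bp over the 4289, by library.

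The sequence and surroundings of the promoters varied among the 10 genes. The start of another protein-coding gene lay within 1 kb of the 5′ end for 5 of 10 (MCM2, MCM4, MCM7, PCNA and ORC1), beside 17.5% of all genes. GC content within 1 kb on each side was 46.7% (MCM3) to 66.8% (CDT1), with a median of 57.0% beside 55.0% over all genes. An E2F word occurred between 250 bases before and 50 after the MANE start in 8 of 10, all except ORC1 and PCNA, beside 868 of 20136 promoters (4.31%). CCAAT occurred on either strand in 8 of 10, all except MCM2 and CDT1, beside 35.9%, and overlapped an E2F word in 1 promoter, that of MCM7. The GC box GGGCGG occurred in 8 of 10 beside 60.9%, and the CHR words TTTGAA or TTCGAA in 1, MCM6, beside 12.9%. A match to such letters is not evidence of binding.

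Of 16 E2F words in the licensing promoters, 6 lay with all their bases under an H3K4me3 peak in at least 1 library, and none touched an IgG peak. The same shares over the E2F words of all genes were not computed, so these counts stand without a background. The 2 overlapping words of MCM2, in the printed run from chr3:127317247, were covered in the HA-Bcl-xL libraries and left uncovered in all control libraries. The word of MCM3 next to its MANE start was covered in control replicates 1 and 2, and that of MCM5 next to its start in control replicate 2. The word of MCM7 at its MANE start was covered in control replicate 1 and HA-Bcl-xL replicate 2, and that of CDC6 in control replicate 1. The peaks of both HA-Bcl-xL libraries reached the first 2 bases of the CDC6 word, and no other word was covered in part. Over all genes, 279 of 868 promoters with an E2F word (32.1%) were marked in all 5 libraries, and 4010 of 19268 without one (20.8%). Here words were searched around the MANE start and peaks around the 5′ end, which lie apart in some genes.

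Among 50 other genes of replication, 27 were marked in all 5 libraries (54%, beside 21.3% of all genes) and 8 in none. None was marked throughout the HA-Bcl-xL libraries alone (beside 0.844% of all genes) or throughout the control libraries alone (beside 0.248%). Of 7 genes of origin recognition and loading, 5 were marked in all 5 libraries and 0 in none. ORC2, an ORC subunit, had 551, 417 and 478 bp under peaks in control cells, against 461 and 484 bp with HA-Bcl-xL, and ORC6, another, had 442, 305 and 389 bp and 348 and 526 bp. Both had overlapping groups and more covered bases than ORC1 in all libraries except control replicate 1, where ORC6 was below it. ORC3 was the only gene of the 50 with an IgG peak, of 85 bp in control replicate 3. Of 14 genes of origin firing and helicase activation, 6 were marked in all 5 libraries and 3 in none. MTBP and TICRR, partners in loading the helicase activator CDC45, had the widest coverage there, with means of 295 and 284 bp. Of 27 replisome and synthesis genes, 15 were marked in all 5 and 4 in none, with WDHD1, which links helicase and polymerase, at a mean of 421 bp and RFC2, a subunit of the PCNA clamp loader, at 337 bp. Of the MCM relatives, MCM8 was marked in all 5 libraries with a mean of 219 bp, and MCM9 in none. Within 2.5 kb of any transcript start, both MCM8 and MCM9 had a peak in all 5 libraries, beside 28.7% of all genes. With the MANE start in place of the 5′ end, the firing list had 8 in all 5 libraries and 1 in none, and the replisome list 15 and 1, beside 23.0% of all genes in all 5 libraries. In the replisome list PRIM2 and POLD4 went from 0 to 5 libraries, RFC5 from 0 to 3, TIPIN from 5 to 3 and POLD3 from 5 to 4. In the firing list GINS3 went from 0 to 5, GINS1 from 2 to 5 and GINS2 from 0 to 1. In the list of origin recognition and loading, ORC4 went from 1 to 4. These genes were singled out after their values were seen.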

How the data were processed

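CUT&RUN libraries of 2 BON1 lines were made with an H3K4me3 antibody or IgG, and peaks were called per library, not on pooled replicates. The submitters' processing notes name bcl2fastq 2.20, Trimmomatic 0.36, Bowtie2 2.2.9, MACS2 2.1.1 and deepTools 3.5.1, and the build hg19. How duplicates were treated, and whether a control entered peak calling, is not given in the sources used here. Each of the 11 deposited narrowPeak lists gives, per peak, a score, a fold enrichment (ratio over local background), a −log10 p, a −log10 q and a summit, all the authors' deposited values. The lists have no header and hold no read totals. These values served to describe, order and filter the peaks of each list, and to estimate fragments as below. The smallest deposited −log10 q was 2.00 to 2.07 per list.

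Genes, transcripts and MANE Select starts came from GENCODE release 44 lifted to GRCh37, and sequences from GRCh37. Of 20136 protein-coding genes, 18917 had a MANE Select start, and the 5′ end served for the others. Coordinates are 1-based, and 0 peaks ended beyond a chromosome. Other contigs than chromosomes 1 to 22, X and Y were left out. The number of fragments at a summit was estimated from the authors' fold and −log10 p, taking fold as (n + 1) / (background + 1) and p as a Poisson upper tail. With a tolerance of 0.001 in −log10 p, 95.9 to 99.97% of the peaks in a list gave a whole number n. The lowest background in a list served as a relative depth.

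The labels gave groups and replicate numbers. Numbers of marked promoters were described beside those of all genes, with no test. Bases under peaks were compared by limma 3.58.1 (R 4.3.3) over all promoters marked in every library fitted, with Benjamini-Hochberg adjustment and a threshold of 0.05. The step was tested on simulated data. Python 3.11.15, numpy 2.4.6, pandas 2.3.3, scipy 1.17.1 and matplotlib 3.10.9 were used. The genes, the lists of other replication genes and of markers, and the tests were chosen with earlier results of these data known. All 10 licensing genes are named, and 1 marker gene is not reported here. Of each other list the 2 genes with the largest mean coverage, and any gene marked in every library of 1 line and none of the other, are named.

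Alternatives were other windows and starts, a minimum −log10 q of 5, lists cut to the same length (10247 H3K4me3 and 244 IgG peaks), the summit in the window, other centring, a looser filter with a pseudocount of 50 bases, the replicate number as a block, and the omission of each library in turn. The MANE start, a peak over the 5′ end base and division of bases by library medians were added after seeing the data.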

Additional observations from a re-analysis of the deposited data

How the results depend on the processing

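The number of licensing genes marked in HA-Bcl-xL minus control libraries (−0.67) was −0.17 with the 2.5 kb window and with 1 kb or 2.5 kb around any transcript start, −0.33 with the summit in the window, −1.33 with a −log10 q of at least 5 and −2 with equal list lengths. It was 0.17 with the MANE start and 1.67 with a peak over the 5′ end base, both chosen after seeing the data. Leaving out single libraries gave −1 to −0.5. The number marked in every library (7) was 4 with a −log10 q of at least 5, 4 with equal list lengths and 0 over the 5′ end base, 6 with the summit in the window or the MANE start, and 7 to 8 without single libraries. The number with an IgG peak (0) was 1 within 2.5 kb of any transcript start, and 0 without single libraries.

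The number of promoters called for coverage (0) was 0 also with the windows of 2.5 kb, 1 kb of any transcript start and 1 kb of the MANE start, with both other centrings, the minimum −log10 q, equal list lengths and the looser filter. It ranged from 0 to 9 without single libraries. Of the licensing genes, ORC1 reversed without centring (0.0355) and with equal list lengths (0.0919), and PCNA with the looser filter (−0.0371). Without single libraries the log2 differences ranged from −0.00854 (without HA-Bcl-xL replicate 3) to 0.50 for MCM2, −0.85 to −0.30 for MCM3, 0.20 to 0.46 for MCM6, −0.25 to 0.44 for PCNA, −0.20 to 0.40 for CDC6, −0.47 to −0.27 for CDT1 and −0.32 to 0.10 for ORC1. MCM5 and MCM7 could be fitted with the looser filter, at −1.10 (SE 0.588) and −0.46 (SE 0.789), and MCM5 also without HA-Bcl-xL replicate 2, where it had no peak, at −0.32 (SE 0.592). The cause of these changes was not tested.

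Replicate numbers 2 and 3 occur in both lines. With the replicate block 13 promoters were called, none of them a licensing gene, and PCNA reversed to −0.25. Deviations of same-numbered libraries correlated at 0.03 and 0.05 over 4289 promoters. Control replicate 1 and HA-Bcl-xL replicate 2, with different numbers, correlated at 0.03 too. The deviations of 2 HA-Bcl-xL libraries from their mean mirror each other, so such correlations cannot show whether the numbers pair the samples. No pairing was taken in the main fit. In that fit 1 residual degree of freedom was left.

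With 2 HA-Bcl-xL libraries, no exact test of a single gene was made. The lists hold called peaks only. Control replicate 3 had the lowest background floor and the fewest peaks (0.0478 and 10247), but control replicate 2 had the highest floor (0.0705) with 12159 peaks and control replicate 1 the most peaks (17711) at a floor of 0.0659. The part of depth in the numbers of marked promoters was not tested.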
